A study of Homo sapiens with 6 samples.

Results

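The genes described here are 10 members of the transforming growth factor-β (TGF-β) family and its secreted inhibitors, chosen by gene name from the 58735 genes of the expression table. They comprise the TGF-β ligands TGFB1, TGFB2 and TGFB3, the activin subunits INHBA and INHBB, the bone morphogenetic protein (BMP) ligands BMP2 and BMP4, the distant ligand GDF15, and the inhibitors FST and GREM1. RNA-seq was done on U251, an established human glioblastoma line kept in medium with 10% fetal bovine serum. Cells at about 80% confluence received sterile water (NC group, n = 3) or recombinant human tumor necrosis factor-α at 10 ng/mL (TNF-α group, n = 3), and all cells were harvested after 24 h. A single line, dose and time were sampled, and the serum present in both groups is itself a source of growth factors that these RNA measurements do not cover.

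TGF-β, activin and BMP ligands are secreted dimers that bind pairs of receptor kinases on the cell surface. The receptors phosphorylate SMAD proteins, which enter the nucleus and change transcription. TGF-βs and activins act through one group of SMADs, and BMPs through another whose usual target genes include the ID genes and SMAD6. TGF-βs are secreted in a latent form that must be activated, and proteins such as follistatin (FST) and gremlin (GREM1) capture ligands outside the cell. In glioblastoma, TGF-β is known for its effects on invasion and immune suppression, while BMP signals are known to drive glioma stem-like cells towards an astrocytic state.

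Values are FPKM as deposited by the authors, that is fragments scaled by gene length in kilobases and by library size. Levels can thus be compared between genes of a library. Whole fragments could be recovered behind each value and are called reads below. Each library held between 31992167 and 37897044 reads in genes, and 3 reads for a gene of 2 kb gave 0.0415 to 0.0618 FPKM. Limits of this kind cover counting error only. The groups were compared with limma on log2(FPKM + 1), which understates fold changes of genes with low values, over 12136 genes with at least 1 FPKM in at least 3 of the 6 libraries. A gene was called at an adjusted p under 0.05 (Benjamini-Hochberg over all genes tested). The labels name the replicates as independent biological ones, and p-values rest on the spread among these 3 against 3 libraries.

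Before any result, TNF-α replicates 2 and 3 have to be set apart. Across the tested genes, Pearson's r of log2(FPKM + 1) was 0.992 between these 2 libraries, 0.991 to 0.993 among the NC libraries and 0.979 to 0.980 between NC and TNF-α replicate 1. Between TNF-α replicates 2 or 3 and the other 4 libraries it was 0.879 to 0.912. Genes longer than 8 kb took 16.6% and 17.9% of the reads in TNF-α replicates 2 and 3, against 28.8% to 29.1% elsewhere. The FPKM of a library summed to 463340 and 408175 in these 2 libraries and to between 256373 and 266716 in the other 4. The library size behind FPKM was 0.693 and 0.759 of the reads in genes in these 2 libraries. In the other 4 it was 0.925 to 0.959 of them. FPKM in TNF-α replicates 2 and 3 are thereby raised relative to reads scaled to the total of reads in genes. The part of these differences in the results below was not tested. The values of the 10 genes are therefore given per library, and the main ones also without TNF-α replicates 2 and 3, where the lone TNF-α library is assumed to vary as the NC libraries do.

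Markers of the line were present apart from S100B, and only GFAP was called between the groups. NES overlapped, with 41.1 to 44.4 FPKM in NC and 40.8 to 69.2 FPKM in TNF-α. VIM lay at 325 to 362 FPKM in NC and 434 to 974 FPKM in TNF-α, SOX2 at 58.9 to 66.3 and 22.6 to 57.8 FPKM, FABP7 at 3.18 to 3.56 and 1.33 to 3.10 FPKM, and CD44 at 133 to 136 and 136 to 141 FPKM. The astrocytic marker GFAP fell from 7.10 to 9.47 FPKM in NC to 1.58 to 2.60 FPKM in TNF-α (limma adjusted p = 0.0210), and S100B reached at most 0.168 FPKM. Of 6 tested line markers, 1 was called, and the groups did not overlap in 5, 2 higher and 3 lower, where 14.8% of all tested genes did so upward and 15.3% downward. The part of these shifts in the results below was not tested. The leukocyte markers PTPRC and CD3E were listed at 0 in every library, and the 6 leukocyte markers summed to 0.869 to 1.16 FPKM in NC and 0.654 to 1.67 FPKM in TNF-α. The 5 endothelial and mural markers summed to 0.654 to 0.989 FPKM in NC and 0.734 to 0.951 FPKM in TNF-α, and 5 neuron markers to 6.38 to 6.67 FPKM and 3.21 to 6.02 FPKM. In bulk RNA, fewer cells of a kind and less RNA per cell cannot be told apart.

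To show the regulatory sequence around the start sites, the 250 bases before each RefSeq transcription start (GRCh38.p14) were read for 9 of the 10 genes, in 13 windows. No window was found for BMP2. TNF-α signals through the transcription factors NF-kB and AP-1, so their motifs were searched on both strands. The NF-kB consensus matched in 5 of the 13 windows, each of another gene, and is found in 9.96% of all 35116 windows of this length. AP-1 (TGANTCA) matched for FST alone, and in 6.57% of all windows. The cAMP response element (TGACG followed directly by TCA, 1.65% of all windows) and the CHOP-ATF4 element (TTGC followed directly by ATCA, 0.772%) matched for no gene of the set. The matched stretches are printed 5′ to 3′ on the gene's own strand, with the motif in capitals, to show what was matched. Whether they take part in any response to TNF-α was not tested.
FST, NF-kB, chr5:53480572-53480601, plus strand: cgcaaaccgcGGAGACCCCCgtctagattt
FST, AP-1, chr5:53480458-53480487, plus strand: gaaatgtcaccTGATTCAcactgaactttt
TGFB1, NF-kB, chr19:41354057-41354086, minus strand: cagggctgaaGGGACCCCCCtcggagcccg
GDF15, NF-kB, chr19:18385982-18386011, plus strand: agctttactaGGAGCGCCCCcacctaaaga
INHBB, NF-kB, chr2:120345976-120346005, plus strand: cctgccgcgcGGGAACCCCCgaggcccggc
GREM1, NF-kB, chr15:32718427-32718456, plus strand: tccacctcccGGAGGCCCCCgaacacgctc
The window of FST overlapped annotated GENCODE exons over 220 of its 250 bases, that of GDF15 over 241 and that of GREM1 over all 250, while those of INHBB and TGFB1 overlapped 0 and 4. Of these 5 genes, INHBB and GREM1 had almost no reads in any library. A match is a description of the letters and does not show a bound site.

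The outermost of 3 BMP4 windows, chr14:53955051-53955300 on the minus strand, is shown as an example without either motif. BMP4 was picked since it was the gene of the set whose TNF-α libraries all lay below the NC libraries. Neither motif matched in any window of BMP4, INHBA, TGFB2 or TGFB3, so the lack was not particular to BMP4. The window shown overlapped no annotated exon. Its capitals mark 2 GC boxes (GGGCGG, here read on the opposite strand), a motif found in 42.6% of all windows.
BMP4: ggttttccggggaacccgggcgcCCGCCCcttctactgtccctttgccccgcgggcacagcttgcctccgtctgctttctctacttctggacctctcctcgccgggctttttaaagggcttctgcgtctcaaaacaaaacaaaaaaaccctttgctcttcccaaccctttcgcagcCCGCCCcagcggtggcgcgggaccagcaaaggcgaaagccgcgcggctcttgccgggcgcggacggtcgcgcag

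To establish which of these genes U251 cells transcribe, their levels were ordered in the NC group. TGFB1 was the most abundant with 106 ± 2.20 FPKM (SD, n = 3), followed by GDF15 with 30.6 ± 1.84, TGFB2 with 9.58 ± 1.42, FST with 6.07 ± 0.680, TGFB3 with 1.502 ± 0.288, BMP4 with 1.19 ± 0.0865 and INHBA with 0.556 ± 0.0645 FPKM. Neighbours in this order did not overlap between libraries, apart from TGFB3 and BMP4. In the TNF-α group FST overlapped TGFB2, and INHBA overlapped both TGFB3 and BMP4, so that the order of these neighbours could not be set, while TGFB3 lay above BMP4 in all libraries. The 3 remaining genes lay at the floor of detection. BMP2 had 6, 0 and 0 reads in NC and 21, 8 and 0 reads in TNF-α. For INHBB, NC replicate 2 gave 4 reads, TNF-α replicate 3 gave 6 and the other 4 libraries gave 0. GREM1 was met by 4 reads in a single library, NC replicate 1, and by 0 elsewhere. For GREM1, 3 reads were worth 0.00568 to 0.00846 FPKM over the 6 libraries. No change of BMP2, INHBB or GREM1 was detectable at this depth.

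**Figure D1:**
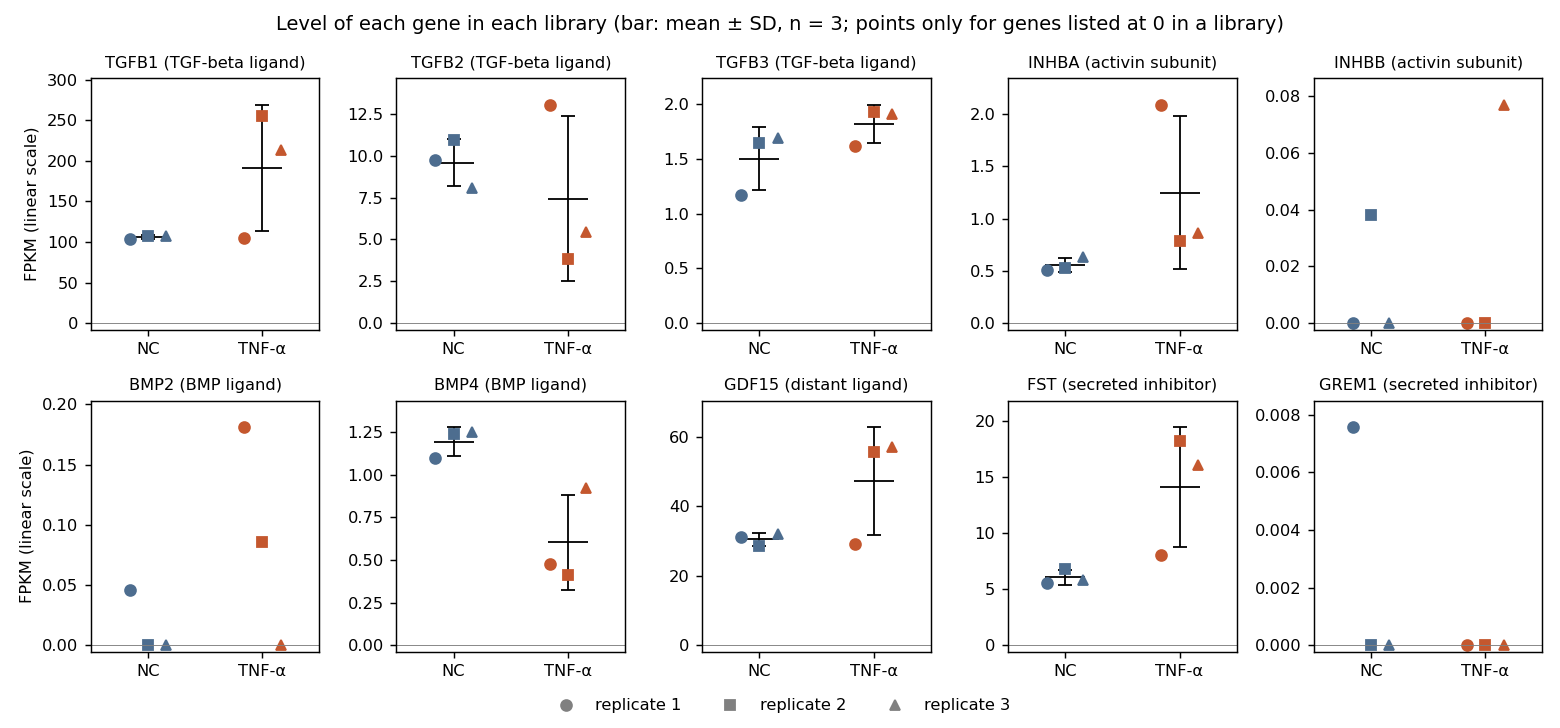
FPKM of the 10 genes (vertical axes, linear, scaled per gene) in the NC and TNF-α groups, with a point per library and bars for mean ± SD where no library was listed at 0. TNF-α replicate 1 lay among or close to the NC libraries for TGFB1, GDF15 and TGFB3 and above the other 5 libraries for INHBA, and all 3 TNF-α libraries lay below NC for BMP4 and above it for FST.

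No gene of the set was called between TNF-α and NC. Of the 10 genes, 6 passed the filter on low values, and 0 of them were called, where 1.01% of all tested genes were called (123 of 12136). An unadjusted p under 0.05 was reached by 2, FST and BMP4, beside 24.2% of all tested genes. With limma-voom on the recovered reads, 0 of the 6 were called and 2 had an unadjusted p under 0.05. The median log2 fold change of the 6 was 0.37, and that of all tested genes was 0.04. The TNF-α libraries all lay above the NC libraries for FST and INHBA, and all below them for BMP4. Such a pattern is to be read against the shares of 14.8% and 15.3% of all tested genes given above. For INHBA, which was not among the genes tested, it depended on the scale, as given below.

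The most abundant ligand, TGFB1 (ENSG00000105329, chr19:41301587-41353911, GRCh38), encodes the TGF-β form that is the main regulator of matrix and immune responses in many tissues. It had 104, 107 and 108 FPKM in NC replicates 1 to 3 and 105, 256 and 214 FPKM in TNF-α replicates 1 to 3, from 10920 to 21462 reads. TNF-α replicate 1 lay inside the NC range, and only the other 2 TNF-α libraries lay above it. The log2 fold change was 0.75 ± 0.34 (SE) with a limma adjusted p of 0.195. It was -0.02 (adjusted p = 0.931) without TNF-α replicates 2 and 3, and 0.10 after a correction for gene length and GC content. The gene is GC-rich, at 63.5% of its longest transcript, from which GC content was taken for every gene. A stretch of 6.64% of the exonic length of TGFB1 overlaps HNRNPUL1 on the opposite strand, which had 69.3 to 109 FPKM. The kit as described does not mark strand, so reads of the shared stretch cannot be assigned to either gene.

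GDF15 (ENSG00000130513, chr19:18374731-18389176) encodes a distant ligand known as a stress-induced factor that signals through the receptor GFRAL. It had 31.2, 28.5 and 32.0 FPKM in NC and 29.3, 55.6 and 57.1 FPKM in TNF-α. Again TNF-α replicate 1 lay inside the NC range and replicates 2 and 3 above it. On the log2 scale the difference was 0.56 ± 0.28 (limma adjusted p = 0.198), and it turned to -0.11 after the length and GC correction and to -0.06 without TNF-α replicates 2 and 3. Like TGFB1, GDF15 is short and GC-rich, with 2087 exonic bases and 62.9% GC.

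TGFB2 (ENSG00000092969, chr1:218346235-218444619), the ligand long known as a T-cell suppressor made by glioblastoma, went opposite ways within the TNF-α group. NC libraries had 9.74, 10.9 and 8.09 FPKM, and the TNF-α libraries 13.1, 3.84 and 5.42 FPKM, from 2161, 513 and 678 reads. TNF-α replicate 1 was the highest of the 6 libraries and replicates 2 and 3 were the lowest, so that both groups overlapped. Their log2 difference was -0.47 ± 0.39 (limma adjusted p = 0.367), and it was 0.42 (adjusted p = 0.179) without TNF-α replicates 2 and 3. TGFB2 is the opposite of TGFB1 in composition, with 38.9% GC and 5151 exonic bases. The transcript TGFB2-OT1 covers 26.6% of that length on the same strand and was listed at 0.

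TGFB3 (ENSG00000119699, chr14:75958099-75982991), a ligand known for roles in palate and connective tissue development, was low. It had 1.17, 1.64 and 1.69 FPKM in NC and 1.61, 1.93 and 1.91 FPKM in TNF-α, from 208 to 267 reads. The groups overlapped, and the log2 fold change of 0.18 ± 0.14 (limma adjusted p = 0.340) turned to -0.18 in TPM, a scale on which the median of all tested genes lay at -0.42.

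The balance among the TGF-β ligands was followed within each library, where the library size cancels but a skew by gene length or GC content does not. TGFB1 made up 90.5%, 89.5% and 91.7% of the summed FPKM of TGFB1, TGFB2 and TGFB3 in NC, and 87.7%, 97.8% and 96.7% in TNF-α. TGFB1 exceeded TGFB2 by a ratio of 10.6, 9.79 and 13.3 in NC and of 8.04, 66.6 and 39.4 in TNF-α. TNF-α replicate 1 had the lowest ratio of the 6 libraries and replicates 2 and 3 had the highest. These ratios were not corrected for gene length or GC content. The log2 fold changes of TGFB1 and TGFB2, 0.75 and -0.47, were 0.10 and -0.22 after that correction. TGFB1 was the main TGF-β ligand transcript in every library.

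INHBA (ENSG00000122641, chr7:41667168-41705834) encodes the βA subunit, whose dimer is activin A, a ligand that FST binds. It had 0.510, 0.529 and 0.630 FPKM in NC and 2.09, 0.785 and 0.863 FPKM in TNF-α, from 153, 144 and 168 reads against 558, 169 and 174 reads. TNF-α replicate 1 stood far above the other 5 libraries, at 3.76 times the NC mean, and replicates 2 and 3 lay at 1.41 and 1.55 times. On the FPKM scale all 3 TNF-α libraries lay above all NC libraries. The difference of the mean log2(FPKM + 1) was 0.48, with an exact two-sided permutation p of 0.1, the smallest that 3 against 3 libraries allow. In TPM, NC had 1.97, 2.06 and 2.37 and TNF-α had 7.84, 1.70 and 2.11, so that replicate 2 lay below all NC libraries. In CPM (reads scaled to the total of reads in genes) TNF-α replicate 2, at 4.52, lay inside the NC range of 4.04 to 4.84. After the length and GC correction, with the filter given below, log2(FPKM + 1) was 1.42, 1.23 and 1.24 in TNF-α replicates 1 to 3. In NC it was 0.40 to 0.56, so that on this scale all TNF-α libraries lay above NC.

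With a filter of at least 0.1 FPKM in at least 3 libraries INHBA entered the fit and had a limma adjusted p of 0.235. With this filter and the length and GC correction it reached 0.84 on the log2 scale (adjusted p = 0.0322), where 0.987% of genes were called. With the same filter and without TNF-α replicates 2 and 3, it reached 0.99 (adjusted p = 0.0357), where 1.4% of genes were called. Without TNF-α replicate 1 instead, it was 0.23 (adjusted p = 0.0626), where 57.7% of genes were called. With the filter and all 6 libraries it was 0.43 in TPM (adjusted p = 0.531) and 1.04 by limma-voom on the recovered reads (adjusted p = 0.213). These combined settings were chosen after seeing the data. INHBA is long and AT-rich, with 8302 exonic bases and 39.1% GC, and all its exons are free of other annotated exons.

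FST (ENSG00000134363, chr5:53480409-53487134) encodes follistatin, a secreted protein that binds activins tightly and BMPs more weakly. It had 5.58, 6.85 and 5.79 FPKM in NC and 8.05, 18.3 and 16.1 FPKM in TNF-α, from 552 to 667 reads and 768 to 1406 reads. All TNF-α libraries lay above all NC libraries, on FPKM, TPM, CPM and after the length and GC correction. The group means were 6.07 ± 0.680 and 14.1 ± 5.38 FPKM (SD, n = 3), a ratio of 2.33. The log2 fold change was 1.03 ± 0.30, with a limma p of 0.0125 that did not pass adjustment (adjusted p = 0.195). It was 0.87 after the correction (adjusted p = 0.119), 0.61 in TPM (adjusted p = 0.178) and 0.36 without TNF-α replicates 2 and 3 (adjusted p = 0.145).

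FST exceeded INHBA in every library, by 10.9, 12.95 and 9.19 times in NC and by 3.85, 23.3 and 18.6 times in TNF-α. The ratio was lowest in TNF-α replicate 1, where INHBA was highest. GDF15 exceeded FST by 5.59, 4.16 and 5.53 times in NC and by 3.64, 3.04 and 3.55 times in TNF-α, so that this ratio within a library was lower in all TNF-α libraries. No test was made of these ratios, and they were not corrected for gene length or GC content.

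BMP4 (ENSG00000125378, chr14:53949736-53958761) encodes a ligand that pushes many precursor cells towards differentiation. It had 1.10, 1.24 and 1.25 FPKM in NC and 0.475, 0.413 and 0.922 FPKM in TNF-α, from 122, 125 and 124 reads against 47, 33 and 69 reads. All TNF-α libraries lay below all NC libraries on the 4 scales compared, including TNF-α replicate 1. BMP4 reached 1 FPKM in the NC libraries alone, so it entered the test only through the group in which it was high. The group means were 1.19 ± 0.0865 and 0.603 ± 0.278 FPKM (SD, n = 3), a ratio of 0.505. The log2 fold change was -0.47 ± 0.16, with a limma p of 0.0227 that did not pass adjustment (adjusted p = 0.195). It was -0.57 without TNF-α replicates 2 and 3 (adjusted p = 0.0784), -0.87 after the length and GC correction (adjusted p = 0.101) and -1.11 in TPM (adjusted p = 0.178). TGFB3 and BMP4 were about level in NC, with ratios of 1.07, 1.33 and 1.35 within a library. In TNF-α, TGFB3 exceeded BMP4 by 3.40, 4.68 and 2.07 times.

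**Figure D2:**
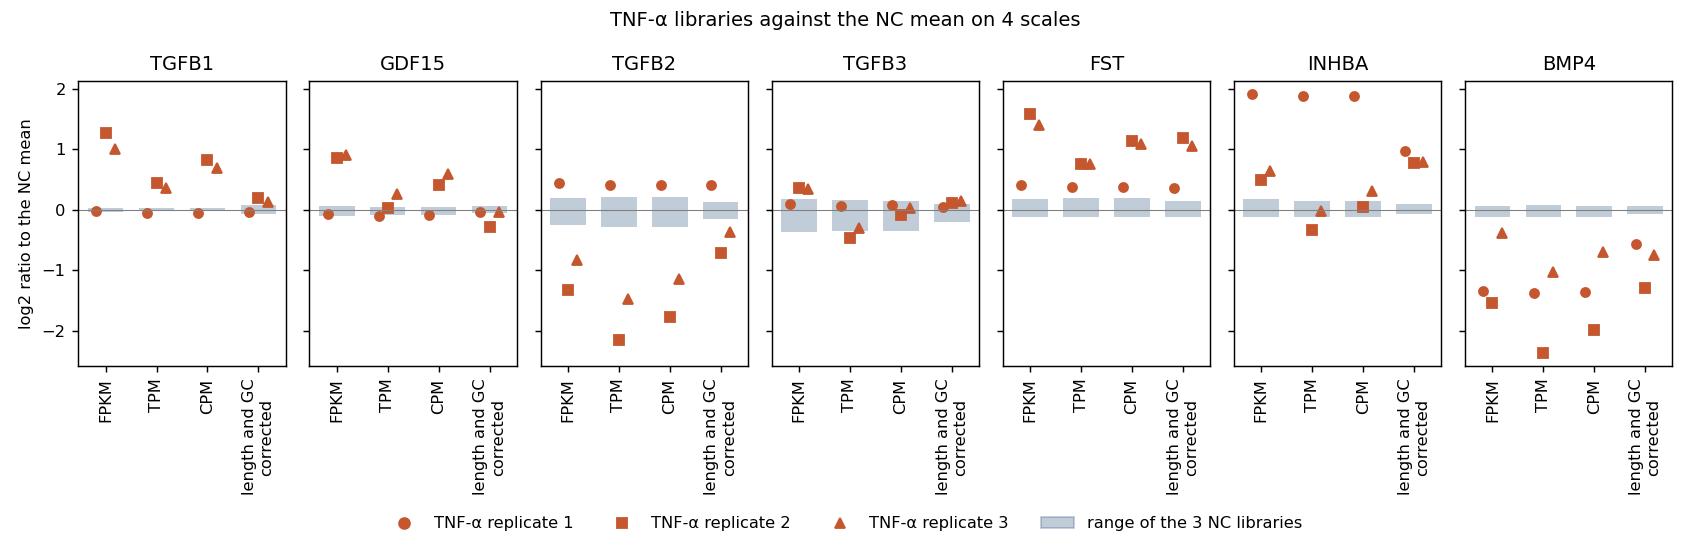
Log2 ratio of each TNF-α library to the NC mean (vertical axis) for 7 genes on 4 scales (horizontal axis; for the length and GC corrected scale, the difference in log2(FPKM + 1)), with the range of the 3 NC libraries shaded. FST lay above and BMP4 below the shaded range in all 3 libraries on each scale, while TGFB1 and GDF15 lay above it on FPKM only in TNF-α replicates 2 and 3. INHBA lay far above it in TNF-α replicate 1, and above it in all 3 libraries on FPKM and on the corrected scale.

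Leaving out TNF-α replicate 1 gave another picture of the set. Of the 6 tested genes 5 were then called, where 79.4% of all tested genes were called. The log2 fold changes were 1.13 for TGFB1, 0.86 for GDF15, 1.36 for FST, -0.92 for TGFB2 and -0.41 for BMP4. Without TNF-α replicates 2 and 3, 0 of the 6 were called, where 6.03% of all tested genes were. Between these 2 settings TGFB2 changed sign, from -0.92 to 0.42. Without TNF-α replicates 2 and 3, TGFB1 and GDF15 lay at -0.02 and -0.06, each smaller than its SE and so no clear reversal. FST and BMP4 kept their direction.

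To place these genes in their pathway, 132 other genes in 7 lists by role were counted in the same fit. Of the 73 that were tested, 3 were called, where 1.01% of all tested genes were. RGMB rose, and ID2 and SMAD6 fell. The median log2 fold change was negative in each of the 7 lists, from -0.41 to -0.19, against 0.04 over all tested genes. Per library, the list medians lay between -0.25 and 0.11 in TNF-α replicate 1 and between -0.66 and -0.17 in replicates 2 and 3.

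**Figure D3:**
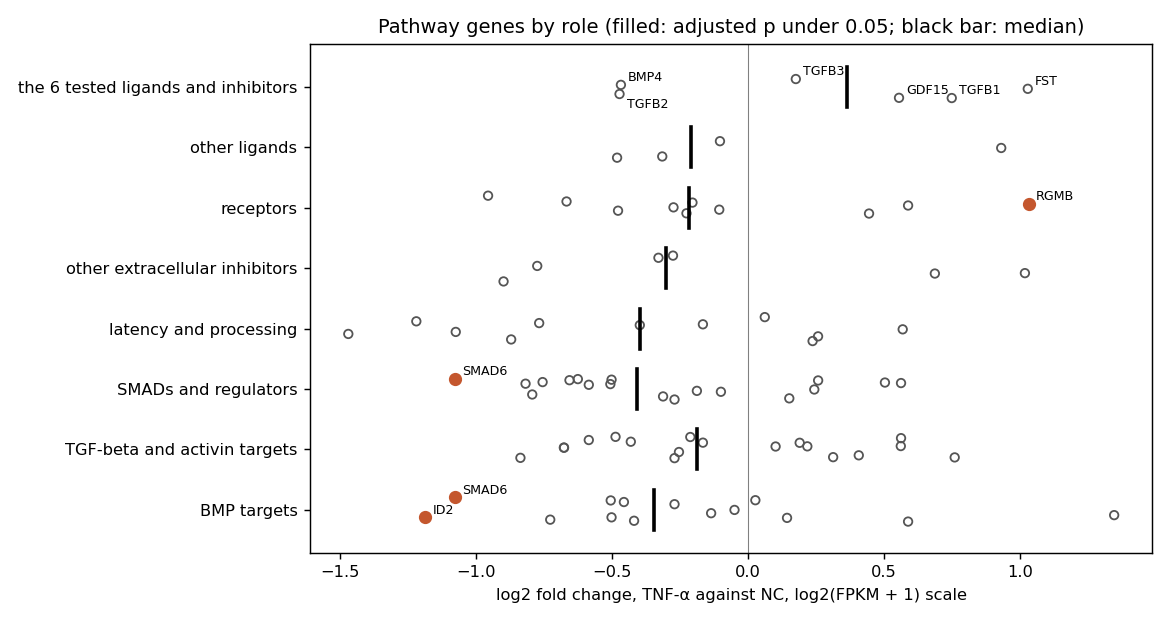
Log2 fold change of TNF-α against NC on the log2(FPKM + 1) scale (horizontal axis) for the 6 tested genes of the set and the tested genes of 7 pathway lists (rows), with a point per gene and a bar at each median. The filled points are the called genes RGMB, ID2 and SMAD6, the latter drawn in 2 lists, and the list medians lie between -0.41 and -0.19.

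Among 25 other ligands, 4 were tested and 0 were called. AMH, anti-Müllerian hormone, had 5.73, 7.15 and 5.67 FPKM in NC and 5.50, 21.0 and 16.8 FPKM in TNF-α (limma adjusted p = 0.197). GDF11 had 2.11 to 2.59 FPKM in NC and 2.19, 2.42 and 1.97 FPKM in TNF-α. Only TNF-α replicates 2 and 3 were high for AMH, a very GC-rich gene (73.1%).

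Among 21 receptors and co-receptors, 10 were tested, 1 was called higher and 0 lower. RGMB, a membrane-anchored co-receptor for BMP ligands, had 9.67, 9.48 and 10.1 FPKM in NC and 19.7, 23.2 and 20.1 FPKM in TNF-α. Its TNF-α libraries were alike, replicate 1 included, and lay about 2-fold above NC. This was a log2 fold change of 1.03 ± 0.13 (limma adjusted p = 0.0251), 1.14 after the length and GC correction and 0.95 without TNF-α replicates 2 and 3 (adjusted p = 0.00184). It was 0.59 in TPM, where the call was lost (adjusted p = 0.178). TGFBR2, the TGF-β type II receptor, was named after its values were seen, and had 34.7 to 36.3 FPKM in NC and 48.6, 22.99 and 24.7 FPKM in TNF-α, with replicate 1 highest and replicates 2 and 3 lowest as for TGFB2.

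Among 20 other extracellular inhibitors, 6 were tested and 0 were called. The most abundant were FSTL3, a follistatin relative that also binds activin, with 30.7 to 37.5 FPKM in NC and 30.04, 79.9 and 68.8 FPKM in TNF-α, and FSTL1, with 43.5 to 44.9 FPKM in NC and 45.0, 31.4 and 34.0 FPKM in TNF-α. For both, TNF-α replicate 1 was close to NC. The BMP antagonists noggin (NOG) and CHRDL1, named after their values were seen, lay below NC in all TNF-α libraries. CHRDL1 had 5.10 to 5.48 FPKM in NC and 3.70, 1.79 and 1.87 FPKM in TNF-α (limma adjusted p = 0.164), and NOG had 1.87 to 2.35 FPKM in NC and 1.38, 1.59 and 1.37 FPKM in TNF-α (adjusted p = 0.195). NBL1, another BMP antagonist named after its values were seen, lay the other way, with 1.71 to 2.41 FPKM in NC and 2.44, 8.52 and 6.26 FPKM in TNF-α (log2 fold change 1.02, adjusted p = 0.195). Of the 6 tested inhibitors, 1 lay above and 3 below NC in all TNF-α libraries, beside 14.8% and 15.3% of all tested genes.

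Among 18 genes of latency and processing, 11 were tested and 0 were called. THBS1, thrombospondin-1, which can activate latent TGF-β, had 460, 441 and 502 FPKM in NC and 340, 105 and 133 FPKM in TNF-α. All TNF-α libraries lay below NC, and the log2 fold change was -1.47 ± 0.44 (limma adjusted p = 0.195). FURIN, the protease that cleaves ligand precursors, had 70.6 to 75.3 FPKM in NC and 78.1, 93.0 and 88.8 FPKM in TNF-α. Its log2 fold change of 0.24 (adjusted p = 0.247) was -0.18 after the length and GC correction and -0.26 in TPM.

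Among 19 SMADs and regulators, 18 were tested, 0 were called higher and 1 lower. SMAD6, an inhibitory SMAD that blocks BMP signals and is itself a BMP target, had 6.50, 5.56 and 6.18 FPKM in NC and 2.61, 2.04 and 2.43 FPKM in TNF-α. In TPM the 3 TNF-α libraries had 9.80, 4.41 and 5.95, against 21.7 to 25.1 in NC. On FPKM they lay close together and well below NC. They differed from NC by -1.08 ± 0.13 on the log2 scale (limma adjusted p = 0.0228), and it was -0.97 without TNF-α replicates 2 and 3 (adjusted p = 0.00457).

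Target genes of TGF-β and activin and those of BMPs were counted apart. Of 22 TGF-β and activin targets, 18 were tested and 0 were called, and 3 in each direction had an unadjusted p under 0.05, beside 12.3% higher and 11.9% lower of all tested genes. CTGF, a matricellular protein gene, had 462 to 517 FPKM in NC and 471, 654 and 602 FPKM in TNF-α (adjusted p = 0.425), with replicate 1 inside the NC range.

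Of 15 BMP targets, 14 were tested, 0 were called higher and 2 lower, where 0.717% of all tested genes were called higher and 0.297% lower. An unadjusted p under 0.05 was found for 2 higher and 6 lower ones, beside 12.3% and 11.9% of all tested genes. The lower ones include SMAD9, ATOH8 and HEY1, which passed the filter through NC, so that their part in this count is no support for a fall. Besides SMAD6, the gene called was ID2, an inhibitor of basic helix-loop-helix transcription factors. ID2 had 41.1, 40.3 and 38.3 FPKM in NC and 16.9, 15.1 and 19.1 FPKM in TNF-α, and its groups were far apart in all 3 TNF-α libraries. The log2 fold change was -1.19 ± 0.14 (limma adjusted p = 0.0223), -1.60 after the length and GC correction and -1.19 without TNF-α replicates 2 and 3 (adjusted p = 7.26e-04). The calls of ID2, SMAD6 and RGMB were lost when any library other than TNF-α replicate 1 was left out, with adjusted p from 0.0878 (ID2, without TNF-α replicate 2) to 0.242 (RGMB, without NC replicate 2), while their directions held. In TPM, ID2 and SMAD6 had adjusted p-values of 0.0648 and 0.0974. The call of SMAD6 was also lost when all genes with any FPKM above 0 were tested (adjusted p = 0.0684), and that of RGMB with limma-voom per total reads in genes (adjusted p = 0.0737).

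The remaining BMP targets were mixed, and those named here were picked after their values were seen. ID4 had 13.3 to 15.6 FPKM in NC and 8.90, 7.32 and 9.38 FPKM in TNF-α (limma adjusted p = 0.105). HEY1, ATOH8 and SMAD9 also lay below NC in all TNF-α libraries, each with an adjusted p of 0.195. ATOH8 and SMAD9 reached 1 FPKM in the NC libraries alone, so that like BMP4 they were tested only through the group in which they were high. HEY1 reached 1 FPKM in the NC libraries and, within TNF-α, in replicate 1 alone (1.16 FPKM), so it too passed the filter through NC. ID1 and ID3 split the TNF-α group. ID1 had 339 to 357 FPKM in NC and 207, 546 and 493 FPKM in TNF-α, and ID3 had 146 to 160 FPKM in NC and 81.7, 228 and 203 FPKM in TNF-α, with replicate 1 lowest and replicates 2 and 3 highest. Their log2 fold changes of 0.14 and 0.03 were -0.39 and -0.50 after the length and GC correction. Opposite to ID2, MSX1 lay above NC in all TNF-α libraries, with 7.92 to 8.71 FPKM in NC and 13.8, 30.9 and 26.3 FPKM in TNF-α (adjusted p = 0.130). After the length and GC correction MSX1 was called higher, at 0.74 (limma adjusted p = 0.0126). In that setting 4 pathway genes were called. BAMBI, a decoy receptor, also lay above NC, with 4.84 to 6.15 FPKM in NC and 6.52, 9.42 and 11.4 FPKM in TNF-α (adjusted p = 0.195).

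**Figure D4:**
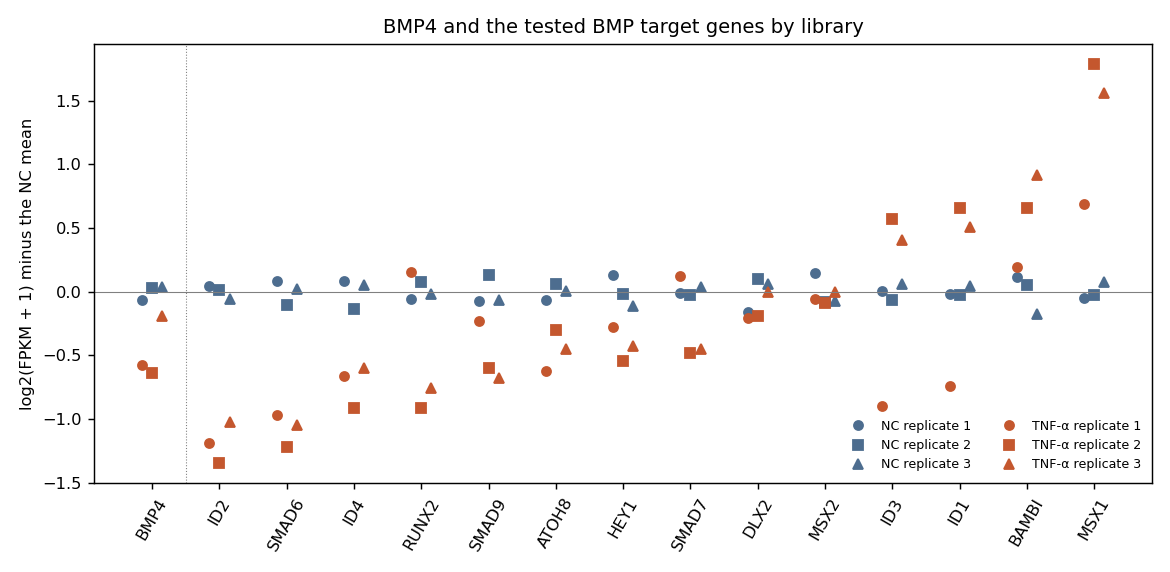
Log2(FPKM + 1) of each library minus the NC mean (vertical axis) for BMP4 and the 14 tested BMP target genes (horizontal axis), with a point per library. ID2, SMAD6, ID4, SMAD9, ATOH8 and HEY1 lay below NC in all TNF-α libraries as BMP4 did, beside 15.3% of all tested genes. Of these, SMAD9, ATOH8, HEY1 and BMP4 passed the filter through NC, the group in which they were high. MSX1 and BAMBI lay above NC in all TNF-α libraries, beside 14.8% of all tested genes. ID1 and ID3 were lowest in TNF-α replicate 1 and highest in replicates 2 and 3.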

How the data were processed

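Total RNA of U251 cells was turned into poly(A)-selected libraries with a kit that is not described as marking strand, and a service company did the sequencing. The submitters' processing notes name HISAT2 2.0.5, StringTie 1.3.3b and featureCounts 1.5.0, and the use of strand in counting is not given in the sources used here. The authors deposited FPKM per gene and library. Another 6 columns of per-sample values matched no sample here and were not used, nor were columns other than FPKM, gene length and annotation. All 58735 genes matched GENCODE 29 (Ensembl 94, GRCh38). FPKM times length gave whole reads for 100% of values (tolerance 0.01 reads).

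Samples were grouped by title. The groups were compared with limma 3.58.1 in R 4.3.3 (lmFit, eBayes with a trend, two-sided) on log2(FPKM + 1), a pseudocount of 1, and an exact permutation test served for genes below the filter. The alternatives were other pseudocounts, filters, scalings and eBayes options, a replicate block, leaving out libraries, limma-voom on recovered reads (113 genes called, where FPKM gave 123), and corrections by splines with 5 degrees of freedom of gene length and GC content. The limma fit was tested on simulated data drawn from a common mean profile, without the difference in composition of TNF-α replicates 2 and 3. Promoter windows came from RefSeq, and tables and plots from pandas 2.3.3 and matplotlib 3.10.9.

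The 10 genes, the pathway lists and the markers were chosen with earlier results of these data known. All 10 are named. From each list up to 4 called genes with the largest change are named, or up to 2 with the highest mean FPKM where none was called, and up to 3 called members would have had their 3 nearest genes by pattern named, which applied to none. Other names are marked as chosen after their values were seen. A gene that this rule named is not reported here.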

Additional observations from a re-analysis of the deposited data

How the results depend on the processing

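FST and BMP4 kept their direction under every alternative run, with log2 fold changes of 0.36 to 1.36 for FST (22 alternatives) and -1.35 to -0.26 for BMP4 (21 alternatives). Called genes of all tested numbered 123. They numbered 58 with any FPKM above 0, 79 with at least 5 FPKM, 58 in TPM, 185 with quantile normalization, 247 after the length and GC correction, and 10 to 9630 with each library left out in turn. Called members, 0 of 6, went to between 0 and 5 in the latter, and called pathway genes, 3 of 73, to between 0 and 62. In TPM no pathway gene was called (0 of 73). TGFB3 turned to -0.18 in TPM and GDF15 to -0.11 after the length and GC correction. Whether replicate numbers pair the libraries could not be decided. The deviations of same-numbered libraries from their group means correlated at -0.0144, -0.178 and 0.124. In the TNF-α group these deviations mainly reflect the split of replicate 1 from the other TNF-α libraries, which could hide an effect shared by a pair. With the replicate block 24 genes of all, 0 members and 0 pathway genes were called.

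Among alternatives chosen after seeing the data, limma-voom per total reads called 77 genes of all. Leaving out TNF-α replicates 2 and 3 called 732 genes and 18 of the pathway, and TGFB1, TGFB2 and GDF15 turned to -0.0158, 0.418 and -0.0579. With at least 0.1 FPKM as the filter, called members numbered 1 without these 2 libraries, 1 after the length and GC correction (INHBA each time) and 4 without TNF-α replicate 1, where 57.7% of all genes were called. The cause of these changes was not tested. The number of libraries and the composition of TNF-α replicates 2 and 3, which belong to the TNF-α group alone, limit each comparison, and a batch cannot be told apart from the treatment within them. Genes below 3 reads in most libraries could not be compared.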
